A study of Homo sapiens with 12 samples.

Results

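The antioxidant programme governed by NRF2, the transcription factor encoded by NFE2L2, was examined as 41 genes chosen by name: NFE2L2 and its regulators, the enzymes that make and use glutathione and thioredoxin, and the enzymes that remove quinones, peroxides and superoxide. All gene probes whose RefSeq accession mapped to these symbols were taken. A probe was found for 40 of the 41 genes (58 probes, with no probe matched for OSGIN1), and 39 genes had at least 1 probe bright enough to be tested, out of 16557 named genes on the arrays and 11592 tested.

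Expression was measured on 12 one-colour Agilent whole human genome arrays hybridised with cyanine 3-labelled RNA from H358, a human lung carcinoma cell line of adenocarcinoma origin. Every array comes from 1 clone, H358/Tet-On/SRSF2, in which a Tet-responsive promoter drives the splicing factor SRSF2, and both groups share this background. The 6 arrays labelled SRSF2 over-expression, called SRSF2-labelled arrays below, are of cells given 1 µg/mL doxycycline for 24 hours. The 6 control arrays are of cells at the same time point whose treatment is labelled as none. The arrays lie on 3 slides, each with 2 arrays of both conditions. By the study's supplement each condition had 3 labelings with 2 arrays each, and which arrays share a labeling is not given in the sources used here, nor whether the cultures were separate. The p-values below treat the 6 arrays of a condition as separate, so they measure a spread between arrays that is partly technical and may be too small. These p-values also leave out slide, and differences between slides that both conditions share can make them too large.

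The only SRSF2 probe tested went against the labels. Log2 signals here and below are log2 processed intensities from which the 75th percentile of each array was subtracted. Control arrays gave 3.74 to 4.03 for this probe and SRSF2-labelled arrays 2.29 to 2.56, a log2 difference of -1.46 (SE 0.06, limma adjusted p = 1.68e-09). Whether this probe reads the transgene is not given in the sources used here, and the study's other assays of SRSF2 were not analysed here. Directions below therefore follow the labels, and "higher" and "lower" mean on the SRSF2-labelled arrays relative to the control arrays. All 8 epithelial marker genes were well above background on all 12 arrays, apart from spots set to missing, and all 5 fibroblast markers with a probe were above it on none. Of 6 leukocyte and 4 endothelial markers, 3 and 1 were above background on all arrays, and PTPRC, LYZ, CDH5 and KDR on none. Between 54.2% and 68.0% of the gene spots were well above background on an array, and 0 were saturated.

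NRF2 is held in the cytoplasm by KEAP1, an adaptor of the CUL3 ubiquitin ligase, and is degraded there in unstressed cells. Oxidants and electrophiles modify KEAP1, NRF2 then accumulates in the nucleus, pairs with a small MAF protein and binds antioxidant response elements near its target genes. In lung cancer the pathway is known for mutations of KEAP1 and NFE2L2 that keep it switched on, and much of its control acts on the NRF2 protein, which these arrays did not measure.

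The core of the antioxidant response element is the sequence TGACNNNGC, in which N stands for any base. It was searched on both strands of the RefSeq promoter windows (GRCh38.p14, 250 bases before to 50 bases after the start site), which matched 31 of the 41 genes. Only 1 window a gene, the first listed, was used. The 10 genes without a window were HMOX1, GSR, GSS, PRDX1, PRDX6, SOD1, SLC7A11, FTH1, AKR1B10 and ABCC3. The core was present in 6 of these 31 windows (19.4%) and in 13.6% of all 27305 promoter windows. The 4 matches that could be printed with 10 bases on both sides before the start site are shown because their genes are described below, 5′ to 3′ on the strand of the gene, with the core in capitals and, for GCLM and GPX2, in the reverse orientation.
GCLM: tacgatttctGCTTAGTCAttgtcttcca
GPX2: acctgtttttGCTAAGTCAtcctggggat
GSTP1: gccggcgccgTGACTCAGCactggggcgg
TXNRD1: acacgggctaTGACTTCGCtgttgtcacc
The stretches shown are chr1:93909446-93909474 (minus strand), chr14:64942849-64942877 (minus strand), chr11:67583736-67583764 (plus strand) and chr12:104215670-104215698 (plus strand). Of these genes GCLM, GPX2 and TXNRD1 were higher and GSTP1 was lower, as given below. The other windows with the core were those of GSTA4 and PIR, and TXNRD1 held a second one. Among the tested genes, 3 of the 6 with the core were higher and 2 lower, against 12 and 4 of the 23 without it. The median log2 differences were 0.18 and 0.21. Of all named genes tested 30.5% were higher and 30.2% lower, and 6 genes are too few for a comparison. A looser core, TGANNNNGC, which includes every match of the first, was present in 19 of the 31 windows (61.3%) and in 42.1% of all windows. These matches are letters in a window and not measured binding sites.

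Over the 39 tested genes, each by its tested probe with the highest mean signal, 19 were higher and 7 were lower on the SRSF2-labelled arrays (limma, adjusted p at most 0.05), and 13 did not pass the test. This makes 66.7% of the tested genes, in a comparison in which 60.7% of all named genes tested were called. The higher share was 48.7% against a background of 30.5%, and the lower share 17.9% against 30.2%. At a change of at least 1.5-fold, 9 genes were higher and 3 lower, against backgrounds of 9.76% and 11.1%. The fitted differences of 2 genes, UGDH and ABCC2, reached a 2-fold rise and those of 0 genes a 2-fold fall, against backgrounds of 2.34% and 2.92%. ABCC2 was at or near background on the control arrays. Set against the dimmest signal well above background, its rise was 1.57-fold. The median log2 difference was 0.15, and over all named genes tested it was -0.00. Where the 2 arrays that share slide and condition were averaged first, which leaves 3 values a condition, 14 genes were higher and 5 lower, and GCLC, GSTP1, MGST1, PRDX6, SOD1, FTL and AKR1C3 lost their calls. With slide also as a block in that fit, 18 genes were higher and 7 lower, and 6 of those 7 calls stood, all but that of PRDX6. Of all probes tested, averaging called 19.8% higher and 19.2% lower, and with the block 28.3% and 26.4%. The main fit called 29.7% and 28.0%. Under quantile normalization GSTP1 lost its call, under normexp background correction GSTP1, AKR1C3 and SOD1, and without background subtraction AKR1C3. PRDX6 lost its call in each of these settings too (adjusted p 0.134, 0.301 and 0.369) and under median scaling (0.151).

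**Figure D1:**
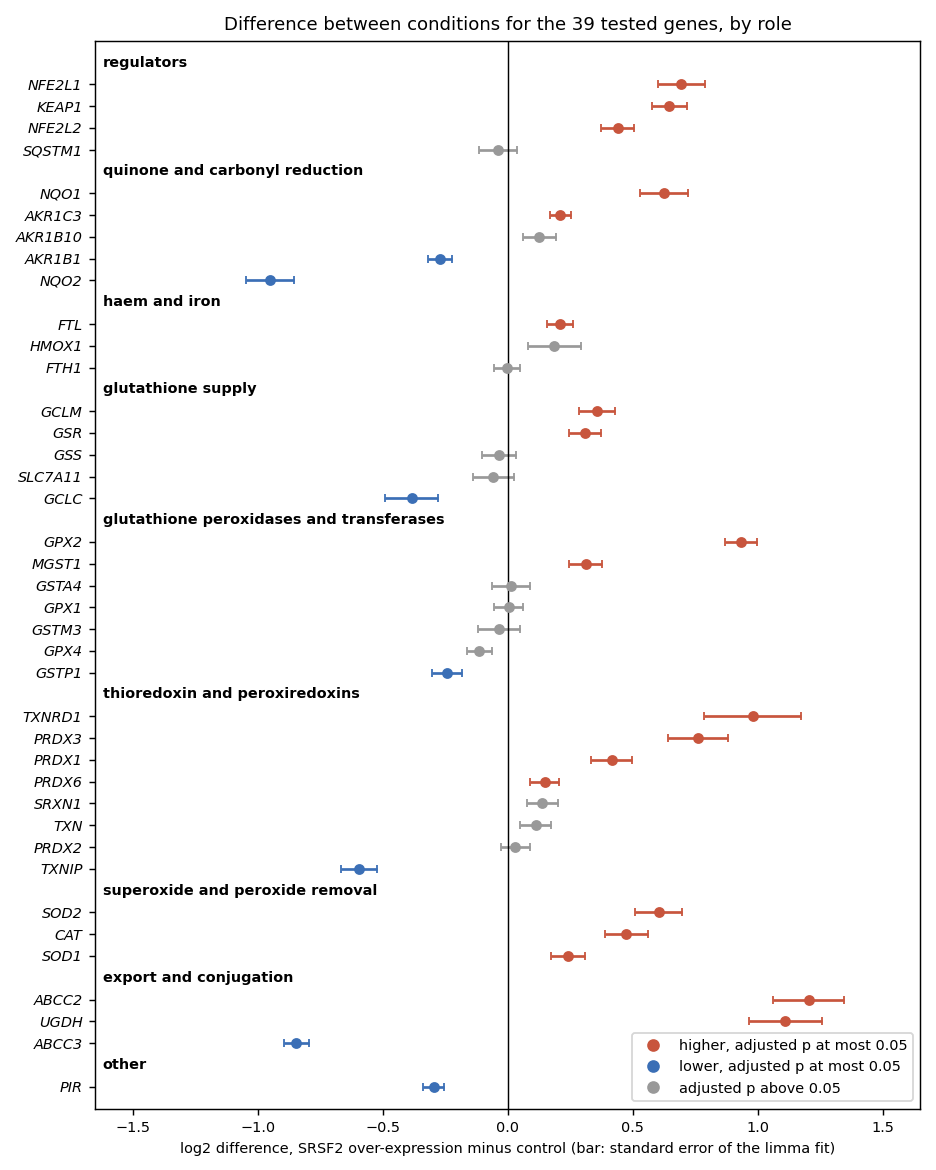
Log2 difference between the 6 SRSF2-labelled arrays and the 6 control arrays for the 39 tested genes, 1 probe a gene, grouped by role, with the standard error of the limma fit as bars and colours for the call at an adjusted p of at most 0.05. Fitted differences run from -0.95 (NQO2) to 1.20 (ABCC2, a dim probe), and 19 genes were called higher and 7 lower.

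The groups of arrays did not overlap for 22 of the 39 genes, and the same was true of 43.5% of all named genes tested. Of the 26 called genes, 26 had the same sign on all 3 slides, as had 4 of the 13 that did not pass. The calls were made on the same arrays, so the shared sign is no separate support for them. Since all values come from bulk cultures, fewer cells expressing a gene and less of its RNA per cell cannot be told apart.

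**Figure D2:**
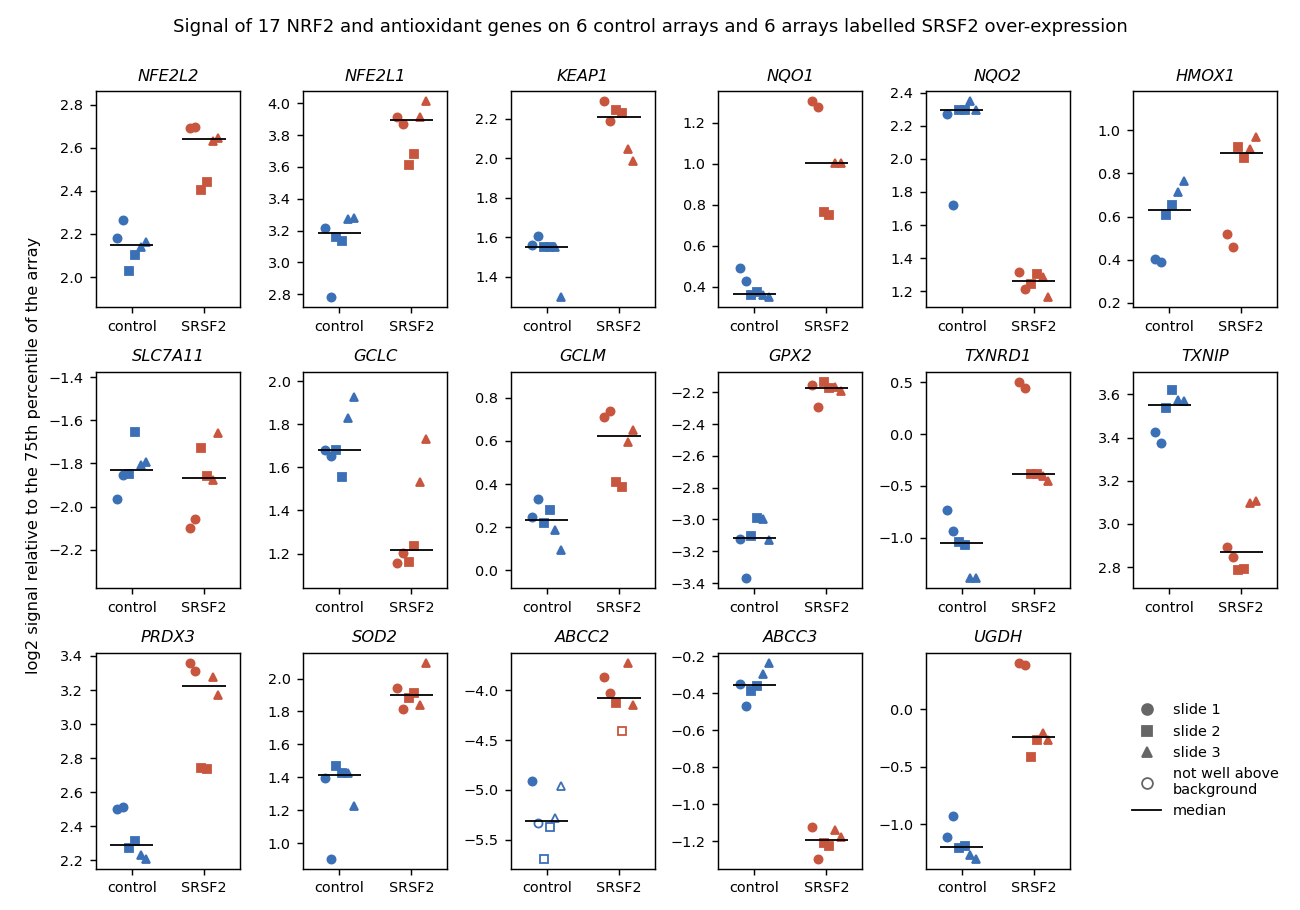
Log2 signal (the 75th percentile of each array subtracted) for 17 genes on the 6 control arrays (left, blue) and the 6 SRSF2-labelled arrays (right, red), with the slide as the symbol, open symbols for spots not well above background and a line at the median. The groups are apart for 14 of the panels, among them KEAP1, GPX2 and ABCC3, and overlap for HMOX1, SLC7A11 and GCLC.

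Among the regulators, 3 of 4 genes were higher and 0 were lower. Of all named genes tested 30.5% were higher and 30.2% lower, and the counts by role here and below are of few genes. NFE2L2, which encodes NRF2 itself, had a log2 signal of 2.03 at the lowest, 2.15 at the median and 2.27 at the highest on the control arrays, and of 2.41, 2.64 and 2.69 on the SRSF2-labelled arrays. The groups did not overlap, and the log2 difference was 0.44 (SE 0.07, adjusted p = 8.17e-05), or 1.36-fold. Within slides 1, 2 and 3 it was 0.47, 0.36 and 0.49.

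KEAP1, the repressor of NRF2, was also higher. Its log2 signal ran from 1.29 through a median of 1.55 to 1.61 on the control arrays, and from 1.98 through 2.21 to 2.29 on the others. The difference of 0.65 (SE 0.07, adjusted p = 5.25e-06) was a 1.56-fold rise, and the slides gave 0.65, 0.69 and 0.59. The transcripts of the factor and of its repressor both rose, and both differences were above 0 on every slide.

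NFE2L1 encodes a related factor of the endoplasmic reticulum membrane that is known for inducing proteasome genes. Its brighter probe read 2.78, 3.19 and 3.28 (lowest, median, highest) on the control arrays and 3.61, 3.89 and 4.01 on the others, a log2 difference of 0.69 (SE 0.09, adjusted p = 4.08e-05). Within the slides the difference was 0.89, 0.50 and 0.69. The other NFE2L1 probe differed by 0.13 (SE 0.09, adjusted p = 0.239), so the rise was seen by 1 of the 2 probes of this gene. SQSTM1, the autophagy receptor p62 that binds KEAP1, differed by -0.04 (SE 0.08, adjusted p = 0.673), with overlapping groups.

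Of the 5 tested genes that reduce quinones and carbonyls, 2 were higher and 2 lower. The quinone reductases NQO1 and NQO2 moved in opposite directions. NQO1, a standard readout of NRF2 activity that reduces quinones with NADPH, had a log2 signal of 0.35, 0.37 and 0.49 (lowest, median, highest) on the control arrays and of 0.75, 1.00 and 1.30 on the others. The difference was 0.62 (SE 0.10, adjusted p = 1.13e-04), with 0.83, 0.39 and 0.65 within the slides. The 2 SRSF2-labelled arrays of slide 1 were the highest of all.

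NQO2, its relative that prefers dihydronicotinamide riboside as a donor, fell. Its control arrays read 1.72, 2.29 and 2.35 (lowest, median, highest) and the others 1.16, 1.26 and 1.31. The difference of -0.95 (SE 0.10, adjusted p = 2.86e-06) was the largest fall among the tested genes of this group, with -0.73, -1.02 and -1.10 within the slides. The lowest control array, replicate 2 on slide 1, lay well below the other 5 and still above every SRSF2-labelled array.

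The aldo-keto reductases reduce aldehydes, ketones and steroids, and their sequences are alike enough that probes may read more than 1 of them. AKR1C3 was higher by 0.21 (SE 0.04, adjusted p = 0.00102) and AKR1B1 was lower, with a difference of -0.27 (SE 0.05, adjusted p = 2.81e-04). AKR1B10 differed by 0.12 at its brighter probe (SE 0.07, adjusted p = 0.125) and rose by 0.21 at the other (SE 0.06, adjusted p = 0.0108). AKR1C1 was too dim to be tested. Its 3 probes were well above background on 2, 3 and 3 control arrays and on 2, 0 and 1 of the SRSF2-labelled arrays. Within the slides their differences lay between -0.72 and -1.58, at signals mostly not well above background, and are given without a test.

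Haem and iron handling gave 1 higher gene of 3. HMOX1, which degrades haem and is among the most inducible NRF2 targets in many cells, read 0.39, 0.63 and 0.77 (lowest, median, highest) on the control arrays and 0.46, 0.89 and 0.97 on the others. The groups overlapped, and the difference of 0.19 (SE 0.11) did not pass the test (adjusted p = 0.156). In both groups the 2 arrays of slide 1 were the lowest. The slides gave 0.09, 0.27 and 0.20. The adjusted p was 0.00700 with the replicate number as a block and 9.31e-04 with slide as a block. With arrays sharing slide and condition averaged and slide as a block it was 0.0800, and HMOX1 was not called.

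Both chains of ferritin were measured. FTL, the light chain of the iron store, was higher by 0.21 (SE 0.05, adjusted p = 0.00425) at its brightest probe, with 2 of its 3 probes called and all 3 above 0. FTH1, the heavy chain, had 5 tested probes, whose differences lay between -0.00 and 0.07 and of which 0 were called. Its brightest probe and that of TXN each had 1 SRSF2-labelled array set to missing as an outlier spot, so 5 arrays stand on that side. Both ferritin genes have many processed pseudogenes, and their probes cannot be assigned to 1 gene with certainty.

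Glutathione supply was mixed, with 2 genes higher, 1 lower and 2 not called. The 2 subunits of glutamate-cysteine ligase, the rate-limiting enzyme of glutathione synthesis, moved in opposite directions. GCLC, the catalytic subunit, read 1.55, 1.68 and 1.92 (lowest, median, highest) on the control arrays and 1.16, 1.22 and 1.73 on the others, with overlapping groups. The difference was -0.38 (SE 0.11, adjusted p = 0.00745; exact two-sided permutation p = 0.0173).

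The fall of GCLC was -0.49, -0.42 and -0.24 within the slides, and the arrays of slide 3 were the highest in both groups. It lost its call without slide 1 (adjusted p = 0.0786), when arrays sharing slide and condition were averaged (0.0815) and under scaling on spike-in probes (0.619). GCLM, the modifier subunit, which lowers the substrate requirement of the enzyme and has the element core shown above, read 0.10, 0.23 and 0.33 on the control arrays and 0.39, 0.62 and 0.74 on the others. These groups did not overlap, and the difference was 0.36 (SE 0.07, adjusted p = 9.27e-04), with 0.44, 0.15 and 0.48 within the slides.

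SLC7A11, the cystine importer that feeds glutathione synthesis, showed no difference that passed the test at either tested probe. Its brighter probe read -1.97, -1.83 and -1.66 (lowest, median, highest) on the control arrays and -2.10, -1.87 and -1.66 on the others, a difference of -0.06 (SE 0.08, adjusted p = 0.568). The slides gave -0.17, -0.04 and 0.03. A second probe, well above background on 3 control arrays and 5 of the others, differed by 0.53 (SE 0.23, adjusted p = 0.0659), and the remaining probe was well above background on 0 arrays. The second probe was dim and passed the filter only through the SRSF2-labelled arrays, where it was brighter. The tested probes differed in sign, but neither difference passed the test, so no direction is given for SLC7A11. The mean of both tested probes differed by 0.24 (adjusted p = 0.0437), a call obtained only with the dim probe included. Glutathione reductase, GSR, was higher by 0.31 (SE 0.06, adjusted p = 0.00118), and glutathione synthetase, GSS, differed by -0.04 (SE 0.07, adjusted p = 0.681).

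Of the 7 glutathione peroxidases and transferases, 2 were higher, 1 was lower and 4 did not pass. GPX2, a glutathione peroxidase of epithelia and a known NRF2 target, had the largest rise of this group. Its log2 signal was -3.37, -3.11 and -2.99 (lowest, median, highest) on the control arrays and -2.29, -2.17 and -2.14 on the others. The difference of 0.93 (SE 0.06, adjusted p = 9.77e-08) was a 1.91-fold rise, and the slides gave 1.02, 0.89 and 0.88. On this dim probe the difference was 0.46 under another background correction (normexp).

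The widely expressed GPX1 differed by 0.00 (SE 0.06, adjusted p = 0.965). GPX4, the peroxidase of membrane lipids that guards against ferroptosis, differed by -0.11 (SE 0.05, adjusted p = 0.0631). Its adjusted p became 0.0467 with the replicate number as a block, 0.0167 with slide as a block and 0.232 with averaged arrays and slide as a block. Among the transferases that couple glutathione to electrophiles, GSTP1 was lower with a difference of -0.24 (SE 0.06, adjusted p = 0.00411) and microsomal MGST1 was higher by 0.31 (SE 0.06, adjusted p = 0.00112). GSTM3, whose relatives share much sequence, differed by -0.04 (SE 0.08, adjusted p = 0.747), and GSTA4 by 0.01 (SE 0.08, adjusted p = 0.910).

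The thioredoxin and peroxiredoxin group had 4 higher genes, 1 lower and 3 not called among 8. TXNRD1, the cytosolic thioredoxin reductase and a known NRF2 target with 2 element cores in its window, read -1.39, -1.05 and -0.74 (lowest, median, highest) on the control arrays. The SRSF2-labelled arrays read -0.45, -0.39 and 0.50. The 2 arrays of slide 1 were the highest in both groups and stood apart from the other 4 on the SRSF2-labelled side.

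For TXNRD1 the difference was 0.98 (SE 0.19, adjusted p = 8.19e-04), a 1.97-fold rise with the largest standard error among the 39 genes, and the slides gave 1.31, 0.67 and 0.96. TXNIP, which binds and inhibits thioredoxin and responds to glucose, moved the other way. Its control arrays read 3.37, 3.55 and 3.62 and the others 2.79, 2.87 and 3.104, without overlap. The difference was -0.60 (SE 0.07, adjusted p = 1.46e-05), with -0.53, -0.79 and -0.47 within the slides. Thioredoxin itself, TXN, differed by 0.11 (SE 0.06, adjusted p = 0.144).

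PRDX3, the peroxiredoxin of the mitochondrial matrix, read 2.21, 2.29 and 2.51 (lowest, median, highest) on the control arrays and 2.74, 3.22 and 3.36 on the others. The difference of 0.76 (SE 0.12, adjusted p = 1.46e-04) was a 1.69-fold rise, with 0.83, 0.45 and 1.00 within the slides. The 2 arrays of slide 2 were the lowest of those labelled SRSF2 over-expression and still above all control arrays. The cytosolic peroxiredoxin PRDX1 was higher by 0.41 (SE 0.08, adjusted p = 7.58e-04). PRDX6 was higher by 0.15 (SE 0.06, adjusted p = 0.0440), with overlapping groups. That call was lost under each other scaling and background setting (adjusted p from 0.134 to 0.601), while PRDX2 differed by 0.03 (SE 0.06, adjusted p = 0.685). SRXN1, the sulfiredoxin that repairs overoxidised peroxiredoxins, differed by 0.14 (SE 0.06, adjusted p = 0.0787). Its adjusted p became 0.0166 with the replicate number as a block, 0.00351 with slide as a block and 0.154 with averaged arrays and slide as a block.

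SOD1, SOD2 and CAT, the 3 genes grouped here for removal of superoxide and hydrogen peroxide, were all higher. Of all named genes tested 30.5% were higher, and the peroxidases and peroxiredoxins, which also remove peroxides, are counted above. SOD2, the manganese superoxide dismutase of mitochondria, read 0.91, 1.41 and 1.47 (lowest, median, highest) on the control arrays and 1.81, 1.90 and 2.10 on the others. The groups did not overlap, and the difference was 0.60 (SE 0.09, adjusted p = 1.20e-04), with 0.73, 0.45 and 0.64 within the slides. Catalase, CAT, was higher by 0.47 (SE 0.09, adjusted p = 4.19e-04). The cytosolic SOD1 was higher by 0.24 (SE 0.07, adjusted p = 0.00799), and its second probe by 0.28 (SE 0.05, adjusted p = 6.96e-04).

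Of the genes of conjugation and export 2 were higher and 1 lower. UGDH makes UDP-glucuronic acid, the donor for glucuronidation. Its brighter probe read -1.30, -1.20 and -0.93 (lowest, median, highest) on the control arrays and -0.42, -0.24 and 0.41 on the others. The difference was 1.11 (SE 0.15, adjusted p = 2.85e-05), a 2.16-fold rise, and the second probe gave 1.16 (SE 0.10). Within the slides it was 1.42, 0.86 and 1.05 for the brighter probe, and the 2 SRSF2-labelled arrays of slide 1 were again the highest.

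ABCC2 and ABCC3 export glutathione and glucuronide conjugates across the apical and the basolateral membrane. ABCC2 was dim. Its tested probe read -5.69, -5.31 and -4.91 (lowest, median, highest) on the control arrays and -4.41, -4.08 and -3.73 on the others, and 1 control array and 5 of the others passed the background flag. The groups did not overlap, but the probe passed the filter only through the SRSF2-labelled arrays. Set against the dimmest signal well above background, its rise was 1.57-fold on the background-subtracted signals. This is no lower limit under other background settings. The fit gave a difference of 1.20 (SE 0.14, adjusted p = 1.06e-05), with 1.17, 1.26 and 1.18 within the slides, on control values mostly below that signal.

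The difference of ABCC2 was 0.31 under normexp background correction and 0.56 without background subtraction, so its size depends on how background is treated. The other ABCC2 probe passed the flag on 0 control arrays and 4 of the others and was not tested. Set against the dimmest signal in the same way, it was 1.51-fold higher on the background-subtracted signals. ABCC3 fell. It read -0.47, -0.36 and -0.24 on the control arrays and -1.30, -1.19 and -1.12 on the others, a difference of -0.85 (SE 0.05, adjusted p = 2.78e-08), with -0.80, -0.84 and -0.89 within the slides. Both exporters kept their direction under every scaling and background setting tried.

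PIR, an iron-binding nuclear protein and known NRF2 target whose window holds the core after the start site, was lower. Its 12 arrays did not overlap between the groups, and the difference was -0.30 (SE 0.04, adjusted p = 4.68e-05), or 1.23-fold.

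**Figure D3:**
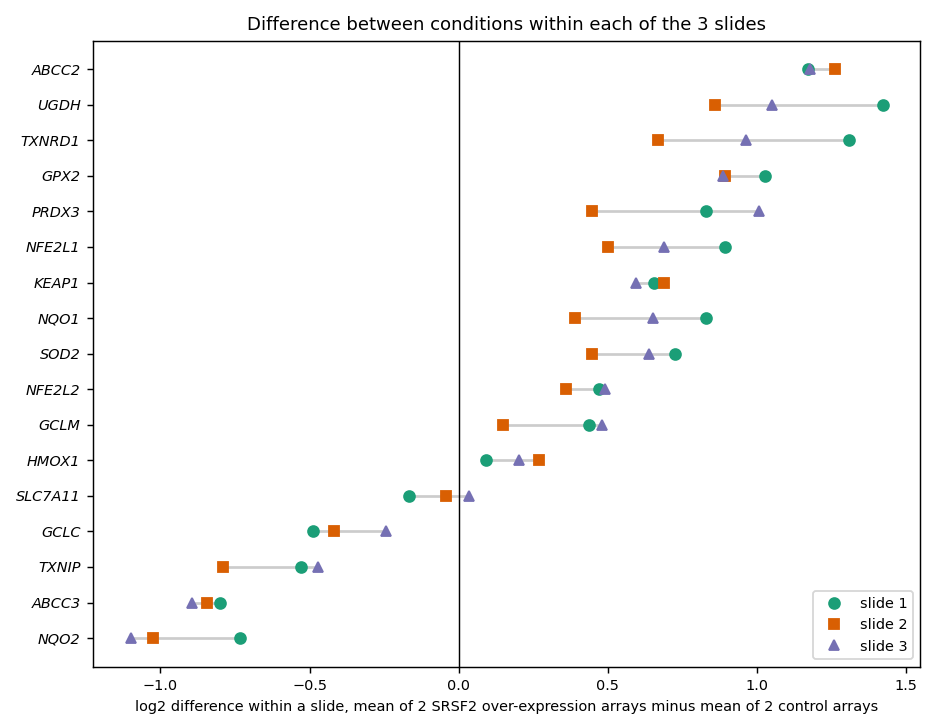
Log2 difference within each slide for the 17 genes, as the mean of the 2 SRSF2-labelled arrays minus the mean of the 2 control arrays, with 1 symbol for each of 3 slides. SLC7A11 is the gene whose slides differ in sign (-0.17, -0.04 and 0.03), and TXNRD1 spans 0.67 to 1.31.

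The 12 genes called at a change of at least 1.5-fold had the same sign on all 3 slides and no overlap between groups. They were picked by size and adjusted p on these same arrays, so this adds no separate support. For NQO1, TXNRD1, PRDX3 and UGDH the 2 highest SRSF2-labelled arrays were those of slide 1. In 9 genes more than 1 probe was tested. The sign was shared in 6 of these, it was not in GSTM3, SLC7A11 and FTH1, and 0 genes had probes called in both directions.

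The size of the differences depends on how arrays are scaled. With scaling on 7 spike-in control probes, the median log2 difference of all probes was 0.22 in place of 0.01, and the median of the 39 genes was 0.36. This scaling added between 0.21 and 0.24 to every one of the 39 differences. All 26 called genes kept their direction, and GSS, GPX4, GSTM3, SLC7A11, FTH1 and SQSTM1, which lay just below 0, lay above it. Relative to the median of all probes FTH1 was the only one of the 39 to change sign. Under that scaling 13 of the 19 higher genes and 2 of the 7 lower genes, NQO2 and ABCC3, were still called. Without slide 1, a setting chosen after seeing the data, these numbers were 7 and 2. The 7 were KEAP1, GPX2, TXNRD1, PRDX3, SOD2, ABCC2 and UGDH. Of all probes tested, spike-in scaling called 20.7% higher and 6.15% lower, and without slide 1 it called 13.1% and 12.9%. The main fit called 29.7% and 28.0%.

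**Figure D4:**
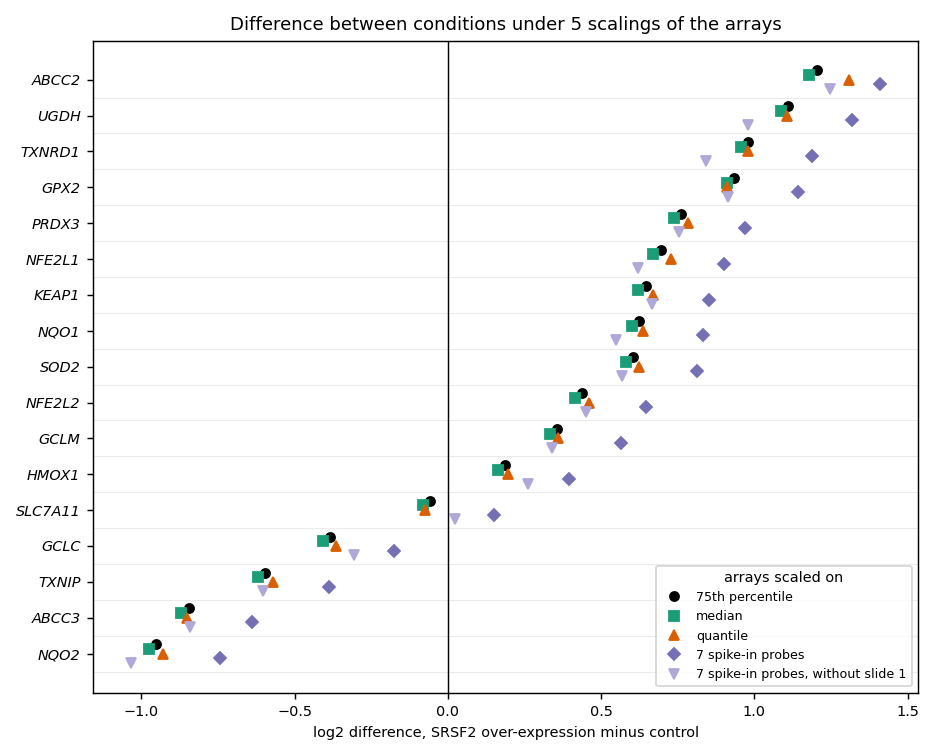
Log2 difference between the conditions for the 17 genes with arrays scaled on the 75th percentile, the median, quantiles or 7 spike-in probes, the last with and without slide 1. The spike-in scaling with all slides lies to the right for every gene, so that SLC7A11 crosses 0 (from -0.06 to 0.15).

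Other genes of the pathway were counted from a separate list of 77 genes, of which 75 had a probe and 63 were tested. On the SRSF2-labelled arrays 26 were higher and 9 lower (41.3% and 14.3%, against the backgrounds of 30.5% and 30.2%), with a median log2 difference of 0.09. The higher ones with the largest fitted differences were BACH2, SESN3, PTGR1, GSTZ1 and AIFM2. BACH2, a repressor that binds the same elements, passed the background flag on 0 control arrays and 5 of the others, so it passed the filter only where it was brighter. Set against the dimmest signal well above background it was 1.25-fold higher on the background-subtracted signals. The fit gave an adjusted p of 6.35e-04 on control values below background. SESN3, a sestrin, had a fitted rise of 0.87 (SE 0.22, adjusted p = 0.00502), with overlapping groups. Its probe met the background flag on 3 control arrays and 6 of the others. Like BACH2, it entered the test only because of the SRSF2-labelled arrays, where it was brighter. The filter thus favoured a rise for both genes, and both are counted among the 26 higher ones.

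PTGR1, a reductase of leukotrienes and alkenals, rose by 0.68 (SE 0.08, adjusted p = 6.71e-06), GSTZ1, a transferase of tyrosine breakdown, by 0.64 (SE 0.08, adjusted p = 1.33e-05), and AIFM2, which suppresses ferroptosis through coenzyme Q, by 0.57 (SE 0.12, adjusted p = 0.00161). The largest fall was that of BTRC, the F-box protein of the second ligase that degrades NRF2, at -1.15 (SE 0.11, adjusted p = 1.56e-06). CUL3, the scaffold of the KEAP1 ligase, was also lower, at -0.42 (SE 0.14, adjusted p = 0.0187), on a dim probe with overlapping groups. The probes of BTRC and CUL3 were each well above background on 6 control arrays and 5 of the others. The mitochondrial thioredoxin reductase TXNRD2 was lower, at -0.58 (SE 0.10, adjusted p = 2.05e-04), opposite in sign to the cytosolic TXNRD1. AKR7A3, an aldehyde reductase, and GLRX3, a glutaredoxin, were lower, at -0.49 (SE 0.07, adjusted p = 5.87e-05) and -0.46 (SE 0.09, adjusted p = 5.78e-04).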

How the data were processed

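Each array came with the output of Agilent Feature Extraction 10.7.3.1, deposited by the authors, whose processed intensity is the signal of a spot after background subtraction. The authors also deposited log2 values for the whole series. These were found equal to log2 processed intensities less the array's 75th percentile and less a centre for each probe (99.82% of values within 0.1), and served as an alternative.

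Here, log2 processed intensities were averaged over the spots of a probe and the 75th percentile over the 41000 gene probes was subtracted. Control spots and outlier spots were left out. The filter removed probes missing on over 25% of arrays and those well above background on fewer than 5 of 6 arrays in both conditions, which left 24330 probes. Conditions were compared with limma 3.58.1 (lmFit and eBayes, R 4.3.3) without covariates, with Benjamini-Hochberg adjustment over all kept probes at 0.05. The fit was checked on simulated data in which arrays were independent, so this check does not bear on arrays that share a slide or labeling. Tables, exact permutation tests over 924 arrangements and figures were made with Python 3.11.15, numpy 2.4.6, pandas 2.3.3, scipy 1.17.1 and matplotlib 3.10.9. For a dim probe, the dimmer condition was set no lower on each array than the faintest signal there that was well above background. The mean of the brighter condition over this floor was given. This value holds for the background-subtracted signals and is no limit under other background settings.

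Gene symbols came from the GRCh38.p14 RefSeq table through the accession (23958 of 25868 probes named); the array annotation is of an older build, so no gene coordinates are given. The genes, lists and settings were chosen with earlier results of these data known. Lowest, median and highest values are printed for genes that were called and changed at least 1.5-fold, and for NFE2L2, KEAP1, NQO1, HMOX1, GCLC, GCLM, TXNRD1 and SLC7A11, and of the other pathway genes up to 5 of the largest changes in each direction are named.

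Replicate numbers run from 1 to 6 in both conditions. Arrays of the same number deviated together from their condition means (correlation 0.28 to 0.64 over 6 pairs), and so did arrays of different number on 1 slide (0.32 to 0.66), but between slides the correlation was -0.48 to -0.05, so the numbers pair arrays by slide. The alternatives were other scalings, normexp (offset 50) or no background correction of the median spot intensity, the authors' table, other filters on dim probes, the methods' t-test, blocks, averaged arrays and each slide left out. Precision is limited by the number of arrays and, where probes are dim, by their signal over background.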

Additional observations from a re-analysis of the deposited data

Results flagged for a closer look

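In 7 of 78 groups of 6 arrays (5 for TXN and FTH1 on the SRSF2 side, where 1 spot is missing; 1 group for each tested gene and condition), 1 array stood far from the others by Dixon's test, and chance flags about 1 in 20 groups. All values are log2 signals scaled on the 75th percentile. On the control arrays, replicate 2 on slide 1 was the lowest for NFE2L1 (2.78, the next 3.13), NQO2 (1.72, the next 2.27) and GPX2 (-3.37, the next -3.13), and replicate 6 on slide 3 was the lowest for KEAP1 (1.295, the next 1.55). On the arrays labelled SRSF2 over-expression, replicate 2 was the lowest for GPX2 (-2.29, the next -2.19), replicate 6 was the highest for SOD1 (6.596, the next 6.492) and replicate 5 was the highest for FTH1 (7.33, the next 7.22). For NFE2L1, NQO2, GPX2 and KEAP1 the conditions did not overlap with these arrays included.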

How the results depend on the processing

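There were 19 alternatives, of which 3 were chosen after seeing the data. Under all of them KEAP1, NQO2, GPX2, TXNRD1, PRDX3, SOD2, ABCC3 and UGDH kept their direction and call. ABCC2 did so in the 18 that tested it. Its probe passed the filter only through the SRSF2-labelled arrays, where it was brighter, so this adds no support for its call. Its difference was 0.31 under normexp background correction. Scaling on spike-in probes moved the most. With it 2 member genes were lower in place of 7, and the median log2 difference of the members was 0.36 in place of 0.15. Of the other pathway genes 12 were higher in place of 26 and 1 lower in place of 9. Of all probes 20.7% were called higher in place of 29.7%, and 6.15% lower in place of 28.0%, so calls were lost over the whole array. Without slide 1, a setting chosen after seeing the data, that scaling left 7 members higher in place of 19 and 2 lower. It left 13.1% of all probes higher and 12.9% lower. The cause was not tested. With slide as a block, 23 members were higher and 8 lower (36.2% and 33.9% of all probes), and 14 other pathway genes were lower. HMOX1, GPX4, SRXN1, TXN and AKR1B10 gained a call (adjusted p 9.31e-04, 0.0167, 0.00351, 0.0495 and 0.0296). TXN and AKR1B10 had none with averaged arrays and slide as a block (0.260 and 0.210). SLC7A11 turned to 0.15 with spike-in scaling, 0.0227 with spike-in scaling without slide 1 and 0.24 with the mean of its tested probes. That mean joins probes of opposite sign and gained a call (adjusted p = 0.0437). The dimmer of these probes passed the filter only through the SRSF2-labelled arrays. The turn with spike-in scaling of all slides is a shift shared by nearly all genes. With the replicate number as a block, 21 members were higher and 8 lower (34.1% and 31.7% of all probes). HMOX1, GPX4 and SRXN1 gained a call (HMOX1 log2 difference 0.19). None of them had one with averaged arrays and slide as a block (adjusted p 0.0800, 0.232 and 0.154). That fit left 18 members higher and 7 lower (28.3% and 26.4% of all probes). Averaging arrays that share slide and condition left 14 members higher and 5 lower (19.8% and 19.2% of all probes). Without the 2 arrays with the fewest spots well above background, chosen after seeing the data, 18 members were higher and 7 lower. Of all probes 28.6% were then higher and 27.5% lower.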
